A study of Mus musculus with 8 samples.

Results

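The SLC22 organic ion transporters described here are 9 genes of a family of kidney organic anion, urate, organic cation and carnitine carriers: Slc22a6, Slc22a8, Slc22a7, Slc22a19, Slc22a12, Slc22a13, Slc22a2, Slc22a4 and Slc22a5. These genes were chosen with earlier results of these data known. They were found by symbol among 37583 genes counted in each library, and they are 9 of 26 genes with an SLC22 symbol there. Gene counts came from RNA of whole kidneys of Mus musculus, in 4 libraries labelled knockout and 4 labelled wildtype. The labels give the genotype of the first group as Six2Cre+TFAP2Afl/flTFAP2Bfl/WT: Cre under Six2 control, Tfap2a floxed on each chromosome and Tfap2b floxed on 1 of the pair. The second group is given as control littermates and as WT, without saying whether these animals carried floxed alleles or Cre. Age and sex are not labelled, and the first group keeps 1 unfloxed Tfap2b allele. Nothing in the labels ties each library to an animal of its own, so p-values speak only for the spread among these libraries, which may be technical.

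In the proximal tubule, organic ions cross the cell in steps: SLC22 carriers on the blood side bring anions or cations into the cell, and other carriers on the urine side let them out. On the urine side, further SLC22 members take urate and carnitine back from the filtrate. The family is known for clearing drugs, toxins and metabolites, and several members are known to differ between male and female rodents. Six2 marks the progenitors of nephron epithelium, so proximal tubule cells descend from cells in which a Six2-driven Cre is active, while collecting duct, vessels and interstitium mostly do not. The comparison asks which kidney transcripts depend on the AP-2 transcription factors that Tfap2a and Tfap2b encode.

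Gene counts totalled 13871861 to 16629301 per library, and each transporter had at least 793 counts in every library, so counting error was small beside the spread between libraries. Tfap2a (2.77 to 5.81 CPM) and Tfap2b (51.8 to 103 CPM) were not lower in the libraries labelled knockout, with log2 differences of 0.26 and 0.03. The targeted genes thus did not check the labels, and every direction given here is a direction by label. The Y-linked gene Ddx3y was at 72.0 to 92.2 CPM and Xist at 0.57 to 1.00 CPM in the 8 libraries. Adrenal cortex transcripts marked the libraries labelled knockout 2 and wildtype 1 (summed level 909 and 879 CPM). The library labelled knockout 1 had the most reads outside annotated genes (16.2%) and without a unique place (20.9%).

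Upstream sequence is shown for the genes whose windows held a match to 1 of 3 motifs that were searched, because these are the AP-2 motif of the targeted factors and motifs of factors known to drive proximal tubule genes. RefSeq windows of 250 bases before the transcript start (GRCm38.p6) were at hand for 8 of the 9 genes, and Slc22a7 was not matched. The AP-2 motif GCCNNNGGC, which reads the same on both strands, was found for 1 gene, Slc22a5, at 2 places, and in 13.7% of all 32851 windows of that length. Core letters of the HNF1 motif, GTTAAT or ATTAAC on the other strand, were found for 2 genes, the neighbours Slc22a6 and Slc22a8, and in 6.43% of all windows. The HNF4 motif CAAAGTC, or GACTTTG, was found for 0 of 8 genes and in 3.84% of all windows. Capitals mark the matches, the sequences run 5′ to 3′ on the gene's strand, and a match is a description of these letters only. Windows of 250 bases are given for Slc22a5 (chr11:53891704-53891953, minus strand) and Slc22a6 (chr19:8617746-8617995, plus strand). For Slc22a8 the window lies in sequence annotated as exon of the same gene, so 26 bases around the match are given (chr19:8593091-8593116, plus strand).
Slc22a5: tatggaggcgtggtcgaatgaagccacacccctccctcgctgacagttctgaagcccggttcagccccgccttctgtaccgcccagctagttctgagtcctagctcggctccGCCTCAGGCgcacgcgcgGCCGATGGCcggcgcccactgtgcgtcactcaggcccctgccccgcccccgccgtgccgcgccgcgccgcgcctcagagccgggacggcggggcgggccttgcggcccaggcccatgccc
Slc22a6: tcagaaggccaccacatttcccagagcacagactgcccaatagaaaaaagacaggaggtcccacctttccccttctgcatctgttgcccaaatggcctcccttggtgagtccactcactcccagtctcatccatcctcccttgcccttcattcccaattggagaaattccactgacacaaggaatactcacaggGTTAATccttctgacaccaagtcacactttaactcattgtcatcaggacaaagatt
Slc22a8: cctgccggatGTTAATcttccaaaga

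By level per length, the 9 transporters spanned about an order of magnitude, led by the urate carrier Slc22a12 and the anion carrier Slc22a6. Levels between genes are compared as CPM per kilobase of exon, where CPM is the usual count scaled to library size, here with TMM factors. The length is the union of exons in GENCODE M21. These may differ from the exons counted, since the submitters' annotation is not named. Slc22a12 was at 388 ± 112 CPM per kilobase (mean ± SD, n = 8), ranked 1 of 26 SLC22 genes by its mean, and took ranks 1 to 4 in single libraries. Slc22a18, outside the 9, was close to it at 362 ± 46.5 and ranked 2. Slc22a6 was at 315 ± 74.7 and ranked 3, and Slc22a7 at 215 ± 72.3 and ranked 5. Slc22a2 was at 164 ± 42.1 CPM per kilobase and ranked 6 in each of the 8 libraries.

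A lower tier followed. Slc22a8 was at 86.0 ± 10.02 and Slc22a5 at 83.6 ± 7.62 CPM per kilobase, and each was above the other in 4 of 8 libraries. Slc22a19 was at 36.8 ± 3.04, Slc22a4 at 35.0 ± 8.15 and Slc22a13 at 31.5 ± 3.57 CPM per kilobase, and neighbours in this trio kept their order in 5 of 8 libraries. Slc22a5 was 1.87 to 2.93 times as high as Slc22a19, the only neighbours in the order of the 9 whose ranges did not overlap. Slc22a12 was above Slc22a6 in 7 of 8 libraries; Slc22a6 was above Slc22a7, Slc22a7 above Slc22a2, and Slc22a2 above Slc22a8 in all 8. Together the 9 genes held 53.0% to 65.6% of the summed level per length of the 26 SLC22 genes. With the longest annotated transcript as the length, Slc22a12 ranked 2, behind Slc22a18. Slc22a19 then ranked 11 in place of 12, and the ranks of the other 7 did not move.

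**Figure D1:**
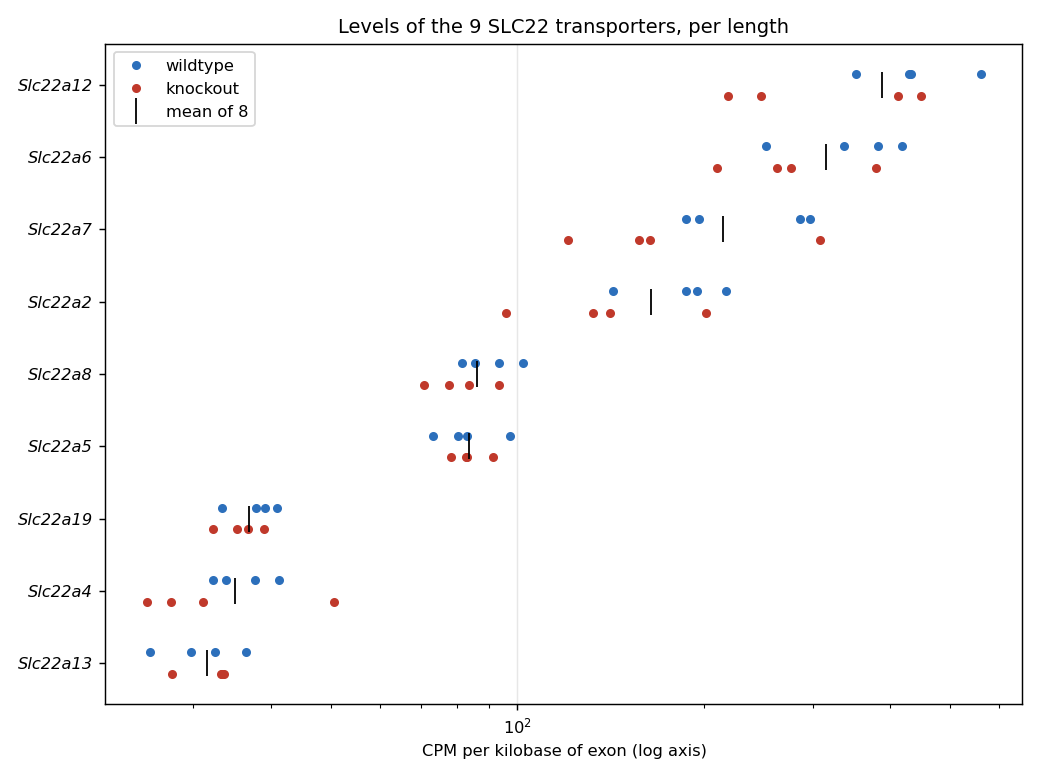
Levels of the 9 SLC22 transporters in the order of their means, as CPM per kilobase of exon on a log axis; each point is 1 library (blue, labelled wildtype; red, labelled knockout) and black ticks are means of 8 libraries. Slc22a12 leads at a mean of 388, Slc22a8 and Slc22a5 lie together near 86.0 and 83.6, and Slc22a19, Slc22a4 and Slc22a13 lie between 31.5 and 36.8.

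Among the organic anion carriers, Slc22a6 (ENSMUSG00000024650, chromosome 19, 8618039 to 8628299 on GRCm38) encodes OAT1, which takes organic anions from blood in exchange for dicarboxylates. Slc22a6 was at 836, 1101, 1514 and 1048 CPM in knockout-labelled libraries 1 to 4 and at 1005, 1667, 1343 and 1524 CPM in those labelled wildtype 1 to 4. The groups overlapped: the library labelled knockout 3 lay above those labelled wildtype 1 and 3, and the lowest value was in the library labelled knockout 1. The log2 difference, knockout minus wildtype by label, was -0.30 (SE 0.20, 95% interval -0.74 to 0.14).

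Next to it on chromosome 19, at 8591254 to 8611835, Slc22a8 (ENSMUSG00000063796) encodes OAT3, a second anion carrier of the blood side. Slc22a8 was at 303, 277, 327 and 365 CPM in knockout-labelled libraries 1 to 4 and at 318, 335, 399 and 366 CPM in those labelled wildtype 1 to 4. Its highest value was 1.44 times its lowest, against 1.99 times for Slc22a6. The groups overlapped, and the log2 difference was -0.16 (SE 0.12, 95% interval -0.42 to 0.10). As a ratio within each library, Slc22a8 counts were 0.201 of those of Slc22a6 in the library labelled wildtype 2 and 0.363 in that labelled knockout 1, the lowest and highest of the 8.

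Slc22a7 (ENSMUSG00000067144, chromosome 17, 46432183 to 46438457) encodes OAT2, another organic anion carrier. Slc22a7 was at 254, 330.0, 649 and 344 CPM in knockout-labelled libraries 1 to 4, and at 394, 625, 601 and 413 CPM in those labelled wildtype 1 to 4. Its lowest and highest values were both in libraries labelled knockout, 1 and 3. The log2 difference of -0.37 had the widest interval of the 9 genes (SE 0.28, -0.997 to 0.26), and it was -0.72 without the library labelled knockout 3 and -0.20 without that labelled knockout 1.

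Slc22a19 (ENSMUSG00000024757, chromosome 19, 7673061 to 7711310) encodes OAT5, a rodent anion carrier of the urine side. It was the steadiest of the 9: 212, 191, 175 and 199.9 CPM in knockout-labelled libraries 1 to 4, and 206, 181, 213 and 223 CPM in those labelled wildtype 1 to 4, so the highest was 1.27 times the lowest. The library labelled knockout 3, which was high for Slc22a6 and Slc22a7, was the lowest for Slc22a19. The log2 difference was -0.08 (SE 0.10, 95% interval -0.30 to 0.15). Its gene overlaps Gm15967 and Gm15968 on the same strand, so part of its reads may have been set aside.

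Of the urate carriers, Slc22a12 (ENSMUSG00000061742, chromosome 19, 6535845 to 6543032) encodes URAT1, which takes urate back from the filtrate. Slc22a12 was at 497, 932, 1015 and 561 CPM in knockout-labelled libraries 1 to 4, and at 799, 1269, 979.9 and 971 CPM in those labelled wildtype 1 to 4. Libraries labelled knockout 1 and 4 were below every library labelled wildtype, and those labelled knockout 2 and 3 lay among them. At -0.42 (SE 0.24, 95% interval -0.95 to 0.11), the log2 difference was the lowest of the 9. Its gene overlaps Nrxn2 on the other strand, with 27.4% of its 50-base words in annotated transcripts of Nrxn2 or other genes. Since counting was not stranded, part of its reads may have been set aside or given to Nrxn2, which was at 3.09 to 32.6 CPM.

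Slc22a13 (ENSMUSG00000074028, chromosome 9, 119192974 to 119209098) encodes OAT10, a carrier of urate and nicotinate. Slc22a13 was at 55.5, 66.5, 66.8 and 67.1 CPM in knockout-labelled libraries 1 to 4 and at 65.1, 59.4, 73.0 and 51.1 CPM in those labelled wildtype 1 to 4. Both the highest and the lowest value were in libraries labelled wildtype. On the log2 scale Slc22a13 differed by 0.04 (SE 0.12, 95% interval -0.23 to 0.31). Of its 50-base words, 36.0% were shared with other annotated transcripts, most with the pseudogene Slc22a13b-ps, which makes its level uncertain. Its gene also lies within Slc22a14 on the same strand, which was at 0.44 to 1.56 CPM, so part of its reads may have been set aside.

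The organic cation carrier Slc22a2 (ENSMUSG00000040966, chromosome 17, 12584132 to 12628488) encodes OCT2, the blood-side entry for cations such as metformin. Slc22a2 was at 238, 329, 501 and 351 CPM in knockout-labelled libraries 1 to 4 and at 355, 540.0, 465 and 485 CPM in those labelled wildtype 1 to 4. Of the libraries labelled knockout, 3 lay below every library labelled wildtype, and knockout 3 lay above 3 of these. The log2 difference was -0.38 (SE 0.21, 95% interval -0.84 to 0.09), and it was -0.59 without the library labelled knockout 3 and -0.23 without that labelled knockout 1.

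Slc22a4 and Slc22a5 lie on chromosome 11 on either side of Slc22a21, at 53983123 to 54028090 (ENSMUSG00000020334) and 53864542 to 53891660 (ENSMUSG00000018900). Slc22a4 encodes OCTN1, a carrier of ergothioneine, and was at 70.5, 79.4, 129 and 64.5 CPM in knockout-labelled libraries 1 to 4 and at 86.6, 96.2, 105 and 82.3 CPM in those labelled wildtype 1 to 4. Its highest and lowest values were in libraries labelled knockout, 3 and 4. For Slc22a4 the log2 difference was -0.11 (SE 0.20, 95% interval -0.56 to 0.34).

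Slc22a5 encodes OCTN2, which takes carnitine back from the filtrate together with sodium, and it is the gene whose upstream window held the AP-2 motif. Slc22a5 was at 254, 240.4, 281 and 253 CPM in knockout-labelled libraries 1 to 4 and at 246, 299, 224 and 255 CPM in those labelled wildtype 1 to 4. All 4 libraries labelled knockout lay within the range of the other group. The log2 difference was 0.01 (SE 0.11, 95% interval -0.24 to 0.25). Slc22a5 shared 26.3% of its 50-base words with other annotated transcripts, most with Slc22a21, which was at 3.42 to 5.57 CPM.

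**Figure D2:**
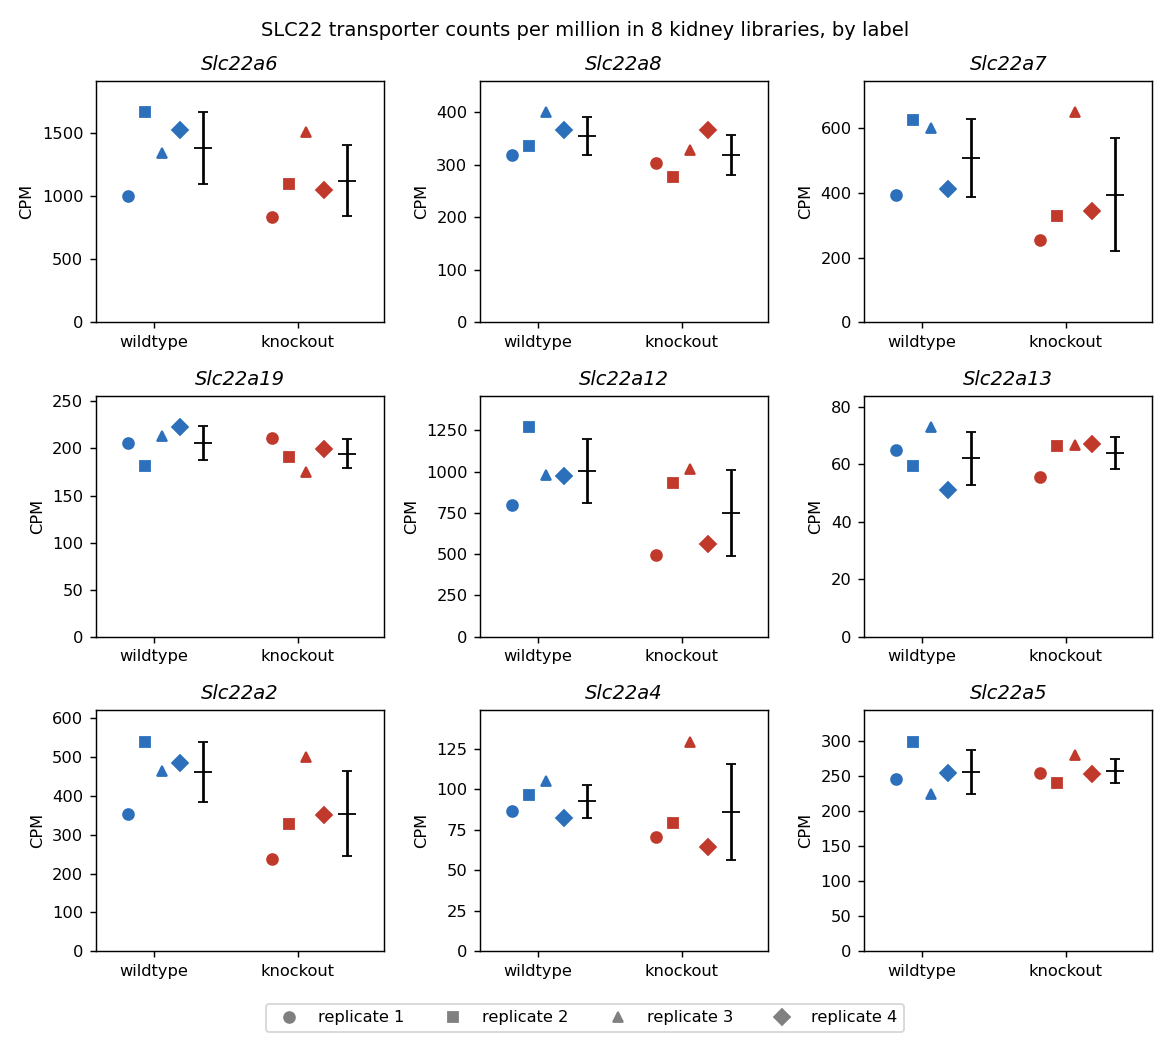
CPM of each of the 9 transporters (1 panel each, axes from 0) in the 8 libraries, grouped by label; marker shapes give the replicate number and black bars the mean ± SD of 4 libraries. In all 9 panels the groups overlap, and for Slc22a2, Slc22a6, Slc22a7 and Slc22a12 the library labelled knockout 1 (circle) is the lowest of the 8.

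None of the 9 transporters passed edgeR's quasi-likelihood test adjusted over 14433 tested genes (adjusted p from 0.957 to 0.997), and none had an unadjusted p under 0.05, where 0% and 4.00% of all tested genes did. By DESeq2 and by limma-voom, 0 of the 9 passed as well. Single libraries moved the unadjusted count. Without the library labelled knockout 3, 5 of the 9 had an unadjusted edgeR p under 0.05 (Slc22a2, Slc22a4, Slc22a6, Slc22a7 and Slc22a12, all negative), beside 8.53% of all tested genes in that fit, and the lowest adjusted p was 0.370. Without the library labelled wildtype 1, 2 of the 9 did (Slc22a2 and Slc22a6), beside 8.53% of all tested genes. Leaving out knockout 1, 2 or 4, or wildtype 2, 3 or 4, gave 0 of the 9, beside 2.35% to 3.66% of tested genes. Knockout 3 was the highest of the libraries labelled knockout for each of the 5 genes named above. Pairs of these 5 had r of 0.68 to 0.97 over the 8 libraries (log2 CPM), so they do not count as 5 separate results. With knockout 3 or knockout 1 left out, the log2 difference was -0.48 or -0.18 for Slc22a6, -0.60 or -0.26 for Slc22a12 and -0.37 or -0.02 for Slc22a4. The groups overlapped for each of the 9, while they did not overlap for 1.97% of tested genes. The differences were negative for 7 and positive for 2, with a median of -0.16 on the log2 scale, beside 48.7% negative and a median of 0.01 over all tested genes. Among the 4196 tested genes with a mean of at least 50 CPM, 2394 were negative and the median was -0.02. As folds, the 95% intervals ran from 0.501 to 1.20 for Slc22a7, the widest, and from 0.810 to 1.11 for Slc22a19, the narrowest. Differences within these intervals were not resolved, and a change in either direction is not shown to be absent. In whole kidney, fewer proximal tubule cells and less RNA per cell cannot be told apart.

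**Figure D3:**
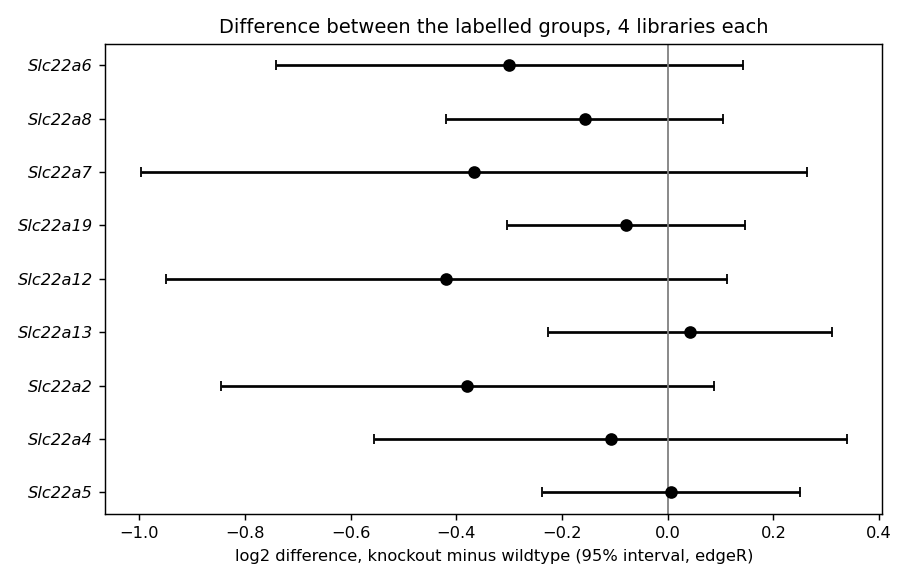
Log2 difference (knockout minus wildtype by label) of the 9 transporters with its 95% interval from edgeR, 4 libraries in each group. Every interval includes 0; the lowest estimate is -0.42 for Slc22a12 and the highest 0.04 for Slc22a13.

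Markers of the proximal tubule were read beside these values. Of 8 genes of the early proximal tubule 5 differences were positive and 3 negative, and their summed level was 7940 to 11032 CPM in the libraries labelled knockout and 7622 to 10820 CPM in those labelled wildtype. Of 8 genes of the straight segment 7 were negative, with a median of -0.17, and their sum, most of it Kap, was 35016 to 64285 and 48890 to 62891 CPM. None of these markers was at 0. Beside them, all 5 endothelial markers were positive, with sums of 327 to 368 CPM by the knockout label and 278 to 309 CPM by the wildtype label that did not overlap. Gene by gene, the groups did not overlap for 3 of these 5, against 1.97% of all tested genes. All 5 markers of the thick ascending limb were positive as well, with sums of 6125 to 7860 and 5304 to 6503 CPM. So were all 5 intercalated cell markers (sums 275 to 403 and 219.7 to 379.6 CPM), all 5 podocyte markers (121 to 158 and 78.6 to 155 CPM) and all 4 tested principal cell markers (479 to 1024 and 475 to 602 CPM). Of 5 markers of the distal convoluted tubule 3 were positive. None of these markers passed edgeR adjusted over all genes. Heat-shock transcripts summed to 261 to 1219 and 255 to 347 CPM. Their part in the transporters' differences was not tested. With the mean of the early list as a covariate in edgeR, the log2 difference was -0.46 for Slc22a2, -0.36 for Slc22a6, -0.44 for Slc22a7, -0.41 for Slc22a12 and -0.23 for Slc22a8, and 0 of the 9 passed.

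From library to library, Slc22a2, Slc22a6, Slc22a7 and Slc22a12 varied together, while no pair that included Slc22a5, Slc22a8, Slc22a13 or Slc22a19 passed the test. Of 36 pairs of the 9 genes, 7 had a Pearson r of log2 CPM over 8 libraries with an adjusted p under 0.05 by a two-sided exact permutation test, adjusted by Benjamini-Hochberg over the 36. These were all 6 pairs among the first quartet and the pair of Slc22a4 with Slc22a7. The pair of the cation carrier Slc22a2 and the anion carrier Slc22a6 had the highest value (r = 0.97, adjusted exact permutation p = 0.0134; rho = 0.88, adjusted exact permutation p = 0.0435). Over the 7 pairs r ran from 0.81 to 0.97 (adjusted exact permutation p from 0.0134 to 0.0492), and rho from 0.79 to 0.95 (adjusted exact permutation p from 0.0411 to 0.126). By rho 6 of the 36 pairs passed.

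Without the pair of libraries farthest from the median of the first gene, r over the 7 pairs was 0.61 to 0.96, and it was lowest for Slc22a2 with Slc22a12, where those libraries were labelled knockout 1 and wildtype 2. Among the 4 libraries labelled knockout r was 0.75 to 0.98, and among the 4 labelled wildtype 0.58 to 0.99. Without the library labelled knockout 1 alone r was 0.69 to 0.96, and without the libraries with adrenal transcripts 0.88 to 0.98. After group means were removed, 2 of 36 pairs passed, Slc22a2 with Slc22a6 and Slc22a2 with Slc22a7, and r over the 7 pairs was 0.76 to 0.96. Here the permutation also moved values between the groups, so its p is approximate and not exact. These relations share the library, its depth and its make-up of cells. How often pairs of other tested genes pass was not counted, so the pairs are not shown to set these transporters apart.

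Pairs with at least 1 of Slc22a5, Slc22a8, Slc22a13 and Slc22a19 had r from -0.67 to 0.54, and 0 of these 26 passed. The neighbours Slc22a6 and Slc22a8, whose upstream windows both held the HNF1 letters, had r = 0.43 (exact permutation p = 0.286, adjusted p = 0.575; rho = 0.50, adjusted p = 0.486, both exact permutation). For Slc22a4 and Slc22a5, which flank Slc22a21, r was 0.27 (exact permutation p = 0.519, adjusted p = 0.645). That these values differ from those of the quartet was not tested. The summed level of the early proximal tubule genes, most of it Slc34a1 and Lrp2, had r of 0.72 with Slc22a8, 0.64 with Slc22a6 and 0.63 with Slc22a2. By rho these were 0.57, 0.45 and 0.43. For the others r was 0.53 with Slc22a7, 0.36 with Slc22a5, 0.27 with Slc22a4, 0.21 with Slc22a12, -0.06 with Slc22a13 and -0.13 with Slc22a19. Of such relations 0 of 9 passed (adjusted exact permutation test).

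**Figure D4:**
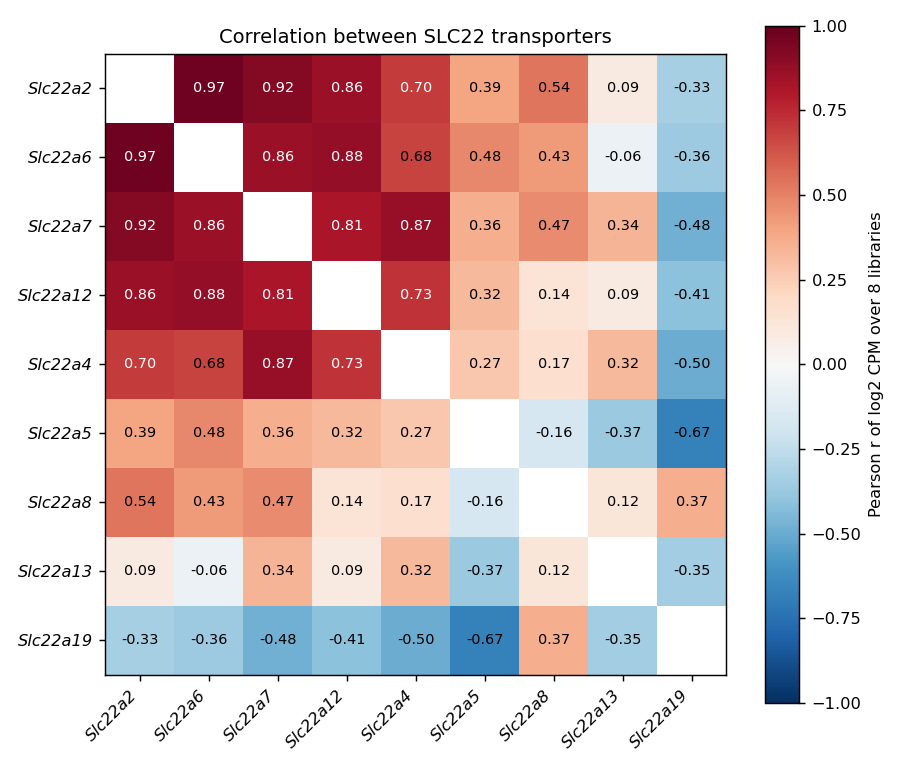
Pearson r of log2 CPM over 8 libraries for each pair of the 9 transporters (red positive, blue negative, blank on the diagonal). The upper left block of Slc22a2, Slc22a6, Slc22a7 and Slc22a12 holds values of 0.81 to 0.97, and values with Slc22a19 in the last row are negative except with Slc22a8 (0.37).

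In the highest and lowest libraries other values moved with this quartet. All of Slc22a2, Slc22a6, Slc22a7 and Slc22a12 were lowest in the library labelled knockout 1, and all but Slc22a7 were highest in that labelled wildtype 2. The steroid-conjugate carrier Slco1a1 was at 292 CPM in the library labelled knockout 1 and at 1821 CPM in that labelled wildtype 2, its lowest and highest values. Of the 8 straight-segment markers, 4 were lowest in the library labelled knockout 1 and 4 highest in that labelled wildtype 2, and 3 were both (Slc7a13, Atp11a and Acsm3). How many of all tested genes had their extremes in these libraries was not counted, so the markers are not shown to stand apart. Acsm3 was at 390 and 1850 CPM there, while Slc5a1 was at 91.5 and 90.3 CPM, and Kap was lowest in the library labelled knockout 4 and highest in that labelled wildtype 1. The prolactin receptor gene Prlr went the other way, at 21.3 and 2.50 CPM. Reads outside genes were 16.2%, 14.5%, 11.6% and 13.7% in the libraries labelled knockout 1 to 4. They were 14.4%, 12.4%, 12.6% and 13.0% in those labelled wildtype 1 to 4. Ordered by this share, the libraries stood in the reverse order of Slc22a7, except that wildtype 1 and knockout 4 changed places. The share thus followed the quartet beyond its extreme libraries, and its relation to these genes was not tested. The part of segment make-up, hormone state or RNA quality in the covariation was not tested.

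For each transporter, the most similar tested gene outside the family was taken by Pearson r of log2 CPM over 8 libraries among 14046 genes with a symbol, as a description with no p. It was Entpd4b for Slc22a2 (r = 0.99), Gpr155 for Slc22a6 (0.99), Csf1r for Slc22a7 (0.99) and Dalrd3 for Slc22a12 (0.98). It was Nupl1 for Slc22a8 (0.98), Mettl6 for Slc22a13 (0.98), Nop58 for Slc22a19 (0.96), Sdc2 for Slc22a4 (0.96) and Galnt14 for Slc22a5 (0.96). As the highest of 14046 values over only 8 libraries, each r is raised by the choice itself and does not show a relation. The number of genes with r over 0.95 was 60 for Slc22a2, 48 for Slc22a6, 24 for Slc22a7 and 11 for Slc22a12, against 1 to 4 for the other 5 transporters. No such count was made for other tested genes. The highest CPM was 1.99 to 2.56 times the lowest for the former, and 1.27 to 2.01 times for the other 5.

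The other SLC22 genes gave no call. Of 16 listed genes 14 had counts enough to test, 7 positive and 7 negative with a median of -0.00312, and 0 passed edgeR adjusted over all genes. Slc22a18 averaged 596 ± 108 CPM by the knockout label and 635 ± 42.8 CPM by the wildtype label (mean ± SD, n = 4, in this order from here on). On chromosome 19, the Slc22a19 relatives Slc22a28 and Slc22a30 were at 83.6 ± 50.025 against 129 ± 63.3 and at 182 ± 68.9 against 245 ± 50.3 CPM. Slc22a29 was at 3.62 ± 1.78 against 1.53 ± 0.42 CPM (log2 difference 1.24, SE 0.37, edgeR adjusted p = 0.957).

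Carriers that work with the SLC22 proteins were read as a list of 25 genes for exit and exchange, of which 9 differences were positive and 16 negative with a median of -0.10, and 0 passed. The groups did not overlap for 1 of the 25, Slco1a4, against 1.97% of all tested genes. Slc47a1, which encodes MATE1, the urine-side exit for cations that OCT2 brings in, averaged 904 ± 173 and 1036 ± 79.4 CPM. Slc17a3, a urate and anion exit, was at 752 ± 252 and 1065 ± 143 CPM (log2 difference -0.50, SE 0.21), and the export pump gene Abcc2 at 137 ± 39.1 and 203 ± 64.6 CPM. Slco1a1 was at 744 ± 493 and 1250 ± 442 CPM, and Slco1a6 at 1071 ± 260.3 and 1007 ± 261.7 CPM. Slco1a4 was at 1.41 ± 0.36 and 2.76 ± 0.86 CPM (log2 difference -0.97, SE 0.29, edgeR adjusted p = 0.957).

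Among 15 regulators and scaffold genes 7 differences were positive and 8 negative, the median was -0.09, and 0 passed. Hnf4a, a transcription factor that drives proximal tubule genes, averaged 835 ± 156 and 953 ± 173 CPM. Pdzk1, a scaffold that holds URAT1 at the urine side, was at 520.0 ± 11.9 and 614 ± 151 CPM. Maf, Pdzk1ip1 and Slc9a3r2 had the lowest p of the list, with log2 differences of 0.30 (SE 0.11), 0.34 (SE 0.13) and 0.31 (SE 0.10).

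Of the carnitine and urate list, 10 of 11 genes were found, 9 were tested, 6 differences were positive and 3 negative, the median was 0.06 and 0 passed. Crot, which moves acyl groups to carnitine in peroxisomes, averaged 519.6 ± 156 and 702 ± 43.9 CPM (log2 difference -0.43, SE 0.18). Cpt1a, the entry enzyme of fatty acids into mitochondria, was at 500.1 ± 74.4 and 556 ± 7.73 CPM, and Aldh9a1, an enzyme of carnitine synthesis, at 590.3 ± 43.5 and 597 ± 103 CPM. Bbox1, the last enzyme of carnitine synthesis, was at 2.25 ± 1.09 and 0.88 ± 0.48 CPM (log2 difference 1.36, SE 0.44), and Xdh, which makes urate, at 27.2 ± 9.02 and 20.8 ± 6.24 CPM.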

How the data were processed

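RNA of whole mouse kidneys was sequenced in 4 libraries labelled knockout and 4 labelled wildtype, grouped by title. The deposited values are raw read counts per Ensembl gene with no normalization. STAR, HTSeq, edgeR and build mm9 are named per the submitters' processing notes, without versions or annotation. Counting was not stranded, by the names of the deposited files. Lines that name no gene (11.6% to 16.2% outside genes, 2.05% to 2.31% ambiguous, 15.8% to 20.9% not unique) stayed out of library sizes and tests. Symbols (32860 of 37583 identifiers), lengths and positions came from GENCODE M21 on GRCm38, by identifier, and promoter windows from RefSeq (GRCm38.p6); no coordinate was converted.

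Groups were compared with edgeR 4.0.16 (R 4.3.3), by its quasi-likelihood method (robust, two-sided, TMM, filterByExpr with minimum count 10 and total 15, 14433 genes, genotype as the only term), with Benjamini-Hochberg adjustment over all genes and a threshold of 0.05. Standard errors come from the same fit. It was tested on simulated data. Log2 CPM used a prior count of 2. Alternatives used DESeq2 1.42.0, limma 3.58.1, other scalings, a covariate, a replicate block and left-out libraries. Overlap of sequence with other genes was counted in words of 50 bases. The members and lists were chosen with earlier results of these data known. From each other list the 3 lowest p and the 3 most abundant genes are named, except 1 that is not reported here, and the proximal tubule markers and Prlr were named after their values were seen. Figures were drawn with matplotlib 3.10.9.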

Additional observations from a re-analysis of the deposited data

Results flagged for a closer look

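One value stood apart by Dixon's criterion for groups of 4 libraries, out of 18 groups examined (9 transporters, 2 labels); chance flags about 1 in 20 groups. For Slc22a13, the library labelled knockout 1 was at 55.5 CPM, while the other 3 labelled knockout were at 66.5 to 67.1 CPM, so the gap made up 0.946 of the range of the group, above Dixon's critical value for 4 samples. The libraries labelled wildtype ranged more widely, from 51.1 to 73.0 CPM.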

How the results depend on the processing

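No alternative brought any of the 9 transporters past the threshold. Over 17 alternatives the log2 difference stayed negative for Slc22a2 (-0.59 to -0.23), Slc22a6 (-0.48 to -0.18), Slc22a7 (-0.72 to -0.17), Slc22a8 (-0.23 to -0.10), Slc22a12 (-0.63 to -0.26) and Slc22a19 (-0.14 to -0.03). The other 3 changed sign under some. With 1 library left out, Slc22a4 ran from -0.37 to 0.0084, Slc22a5 from -0.054 to 0.088 and Slc22a13 from -0.042 to 0.13. Slc22a5 was at -0.0006 without a filter on low counts and -0.013 with the early proximal tubule covariate. Without the libraries labelled knockout 2 and 4, highest in heat-shock genes (chosen after seeing the data), Slc22a4 was at 0.11 and Slc22a13 at -0.025. The cause was not tested. Over all genes, where edgeR called 0 (578 at an unadjusted p under 0.05), DESeq2 called 4, the fit without heat-shock libraries 1, and fits with 1 library left out 0 to 2 (1 without knockout 3, 1 without knockout 4, 2 without wildtype 1). The number of correlated pairs was 5 on the CPM scale and 2 with group means removed, against 7. With the replicate number as a block, edgeR called 0 genes and 0 transporters (1075 genes, 7.45%, and 3 transporters, Slc22a2, Slc22a7 and Slc22a12, at an unadjusted p under 0.05); same-numbered libraries deviated together with r of 0.23, -0.23, 0.28 and 0.29 for numbers 1 to 4, so the numbers do not show a pairing. At an unadjusted p under 0.05, the covariate gave 1 transporter (Slc22a8, beside 7.59% of genes) and the fit without adrenal libraries 1 (Slc22a12, beside 5.31%). Each transporter had at least 793 counts in every library.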
